A study of Mus musculus with 12 samples.

Results

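The 10 genes described here encode the mouse MHC class II antigen presentation machinery: the classical chains H2-Aa, H2-Ab1, and H2-Eb1, the invariant chain Cd74, the peptide editors H2-DMa, H2-DMb1, H2-DMb2, H2-Oa, and H2-Ob, and the transcriptional coactivator Ciita. They were chosen by name from the 55291 genes of a raw count table, and all 10 were among the 15825 genes that passed the expression filter. RNA was sequenced from LK cells, a bone marrow fraction depleted of lineage-positive mature cells and enriched for cKit, the receptor for stem cell factor, of 12 C57BL/6 mice at 12 months of age, with 1 library per mouse and 3 mice in each of 4 genotypes. The groups were WT, Kdm6bΔ/+, in which 1 allele of the histone H3 lysine 27 demethylase gene Kdm6b is deleted, Asxl1Y588XTg, which carries a transgene for a truncated form of the chromatin regulator ASXL1, and Asxl1Y588XTg Kdm6bΔ/+, which carries both changes. The deletion is made by Cre recombinase from the Mx1Cre transgene after dosing with pI:pC, which mimics viral double-stranded RNA and triggers interferon production. In the transplantation experiments of the study WT donors carried Mx1Cre and recipients received pI:pC, but for the mice sequenced here neither is stated for those without the deletion. The promoter of the Asxl1 transgene is not given in the sources used here. The LK fraction was enriched on beads, with a purity that the methods describe as routinely high, and a minority of other marrow cells can remain in it.

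MHC class II molecules are heterodimers of an α and a β chain that present peptides from endocytosed proteins to CD4+ T cells. New dimers bind the invariant chain, which occupies the groove until proteases cleave it in endosomes, where the DM heterodimer exchanges the last fragment for antigenic peptides and the DO heterodimer restrains DM. Dendritic cells, B cells, and macrophages make most of these molecules, and their genes share promoter elements on which Ciita, itself induced by interferon γ in many cells, is recruited.

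From 14451522 to 23482563 reads were counted per library. Levels are given as CPM, counts scaled to a common library size (counts per 1e+06 after TMM scaling). After that scaling the 10 genes together came to between 0.0214% and 0.0858% of the common library size. The targeted gene Kdm6b was at 121 ± 14.3 CPM in WT, 85.3 ± 8.01 in Kdm6bΔ/+, 128 ± 3.40 in Asxl1Y588XTg, and 103 ± 8.03 in Asxl1Y588XTg Kdm6bΔ/+ cells (SD, n = 3), and Asxl1 counts, between 145 and 185 CPM, did not separate the transgenic libraries from the others. All 14 LK progenitor markers were detected, and their sum ranged from 15893 to 21744 CPM. Y-linked transcripts, counted as present at 100 reads or more, were found in 0 of 3 WT, 2 of 3 Kdm6bΔ/+, 1 of 3 Asxl1Y588XTg, and 3 of 3 Asxl1Y588XTg Kdm6bΔ/+ libraries, so that sex and genotype cannot be told apart where these differ.

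A few libraries stood apart for genes of the MHC. The 10 class II genes summed to 858 CPM in Asxl1Y588XTg replicate 1 and to between 214 and 461 CPM in the other 11 libraries. That library was the highest of the 12 for 7 of the 10 genes, against 12.5% of all genes tested. Kdm6bΔ/+ replicate 2 and Asxl1Y588XTg Kdm6bΔ/+ replicate 1 differed together from the rest along the MHC region. Over the 115 genes tested between the first and the last H2 gene there (mm10 chr17:33974659-37274484), these were the highest or the lowest pair of libraries for 15 genes (13.04%), against 1.43% of the genes elsewhere. In 12 of these 15 genes, 10.4% of the 115, both libraries also lay at least 0.5 from the median of the 12 libraries on the log2 scale, against 0.248% of the genes elsewhere. The next library pair by this count, Asxl1Y588XTg replicates 1 and 2, was extreme for 13 genes of the region, 5 of them by that distance, and for 7.37% of genes elsewhere. Gm8909 gives the clearest example, with 5.58 CPM in Kdm6bΔ/+ replicate 2, 4.66 CPM in Asxl1Y588XTg Kdm6bΔ/+ replicate 1, and at most 0.916 CPM in any other library. H2-Q4, a class I gene, stood at 60.5 and 53.5 CPM in these libraries and between 20.2 and 44.0 CPM in the others. In contrast, the class I gene H2-T22 stood at 10.3 and 9.90 CPM there and between 16.8 and 33.7 CPM elsewhere. All mice carry the same strain label.

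**Figure D1:**
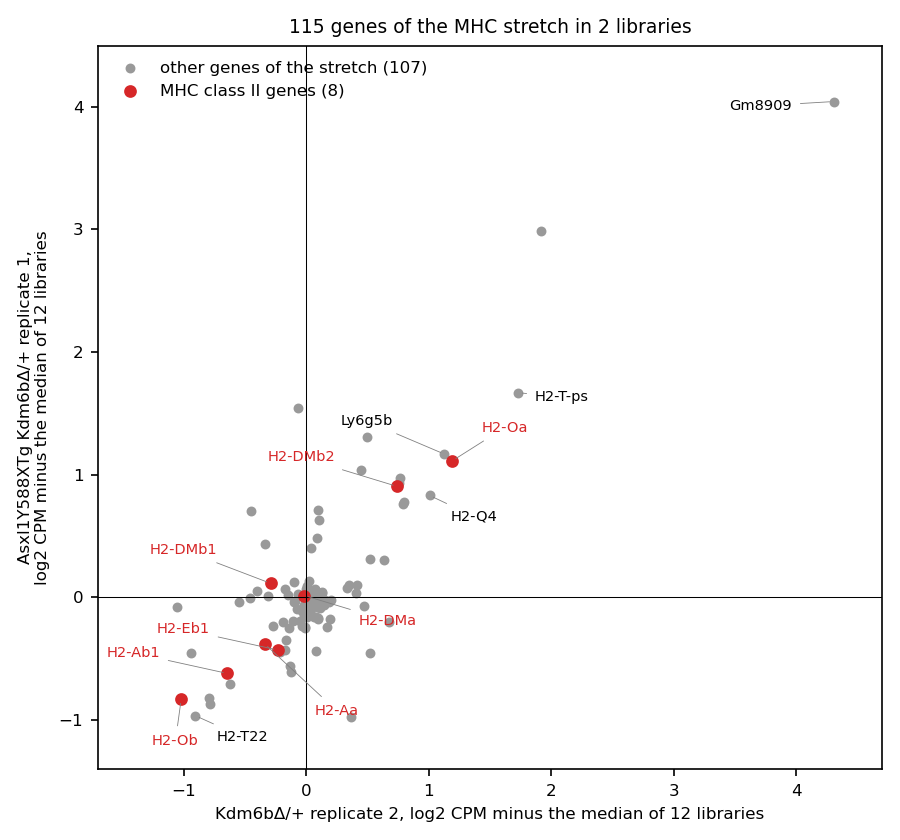
Each point is 1 of the 115 genes tested in the MHC region of chromosome 17, placed by its log2 CPM minus the median of the 12 libraries in Kdm6bΔ/+ replicate 2 (horizontal axis) and in Asxl1Y588XTg Kdm6bΔ/+ replicate 1 (vertical axis). The 8 class II genes of the region are in red. H2-Oa and H2-DMb2 lie at the upper right, H2-Ob and H2-Ab1 at the lower left, and Gm8909 lies above 4 on both axes.

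H2-Aa encodes the α chain and H2-Ab1 the β chain of the I-A molecule, and H2-Eb1 encodes the β chain of I-E. H2-Aa lies at chr17:34282744-34287823 on the minus strand, H2-Ab1 at chr17:34257689-34269419 and H2-Eb1 at chr17:34305867-34316674 on the plus strand (mm10, GENCODE vM21). Cd74, the invariant chain, lies apart from the MHC at chr18:60803848-60812652. Per kilobase of annotated exon, which allows levels to be compared between genes, Cd74 was the most abundant in WT cells with 75.0 ± 2.53 CPM per kilobase (SD, n = 3). H2-Ab1 followed with 19.9 ± 1.63, H2-Eb1 with 17.2 ± 1.13, and H2-Aa with 14.7 ± 1.40 CPM per kilobase. The other gene for an E chain, H2-Ea, a pseudogene in C57BL/6 mice, had 1 read in the 12 libraries together, and H2-Eb2, a further β chain gene, had between 4 and 29 reads per library.

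H2-Aa was measured at 61.9, 53.8, and 51.9 CPM in WT and at 27.5, 41.7, and 32.6 CPM in Kdm6bΔ/+ cells. The Asxl1Y588XTg libraries gave 156, 59.1, and 64.7 CPM, and the Asxl1Y588XTg Kdm6bΔ/+ libraries 40.7, 42.5, and 77.8 CPM. Thus every Kdm6bΔ/+ library lay below every WT library, and replicate 1 stood alone among the Asxl1Y588XTg libraries. H2-Ab1 was at 55.7, 47.5, and 50.3 CPM in WT, 33.2, 31.4, and 32.8 CPM in Kdm6bΔ/+, 135, 57.6, and 60.9 CPM in Asxl1Y588XTg, and 31.9, 47.8, and 81.0 CPM in Asxl1Y588XTg Kdm6bΔ/+ cells. Here too WT and Kdm6bΔ/+ did not overlap, and the 3 Asxl1Y588XTg libraries all exceeded WT. H2-Eb1 was at 32.2, 32.0, and 35.9 CPM in WT, 18.8, 27.3, and 17.5 CPM in Kdm6bΔ/+, 111, 37.2, and 41.1 CPM in Asxl1Y588XTg, and 23.8, 22.5, and 48.2 CPM in Asxl1Y588XTg Kdm6bΔ/+ cells. Cd74 was at 130, 126, and 121 CPM in WT, 71.8, 105, and 66.5 CPM in Kdm6bΔ/+, 339, 126, and 142 CPM in Asxl1Y588XTg, and 90.0, 113, and 174 CPM in Asxl1Y588XTg Kdm6bΔ/+ cells. For all 4 genes the means were lowest in Kdm6bΔ/+ and highest in Asxl1Y588XTg cells, whereas WT and Asxl1Y588XTg Kdm6bΔ/+ lay between them and overlapped.

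**Figure D2:**
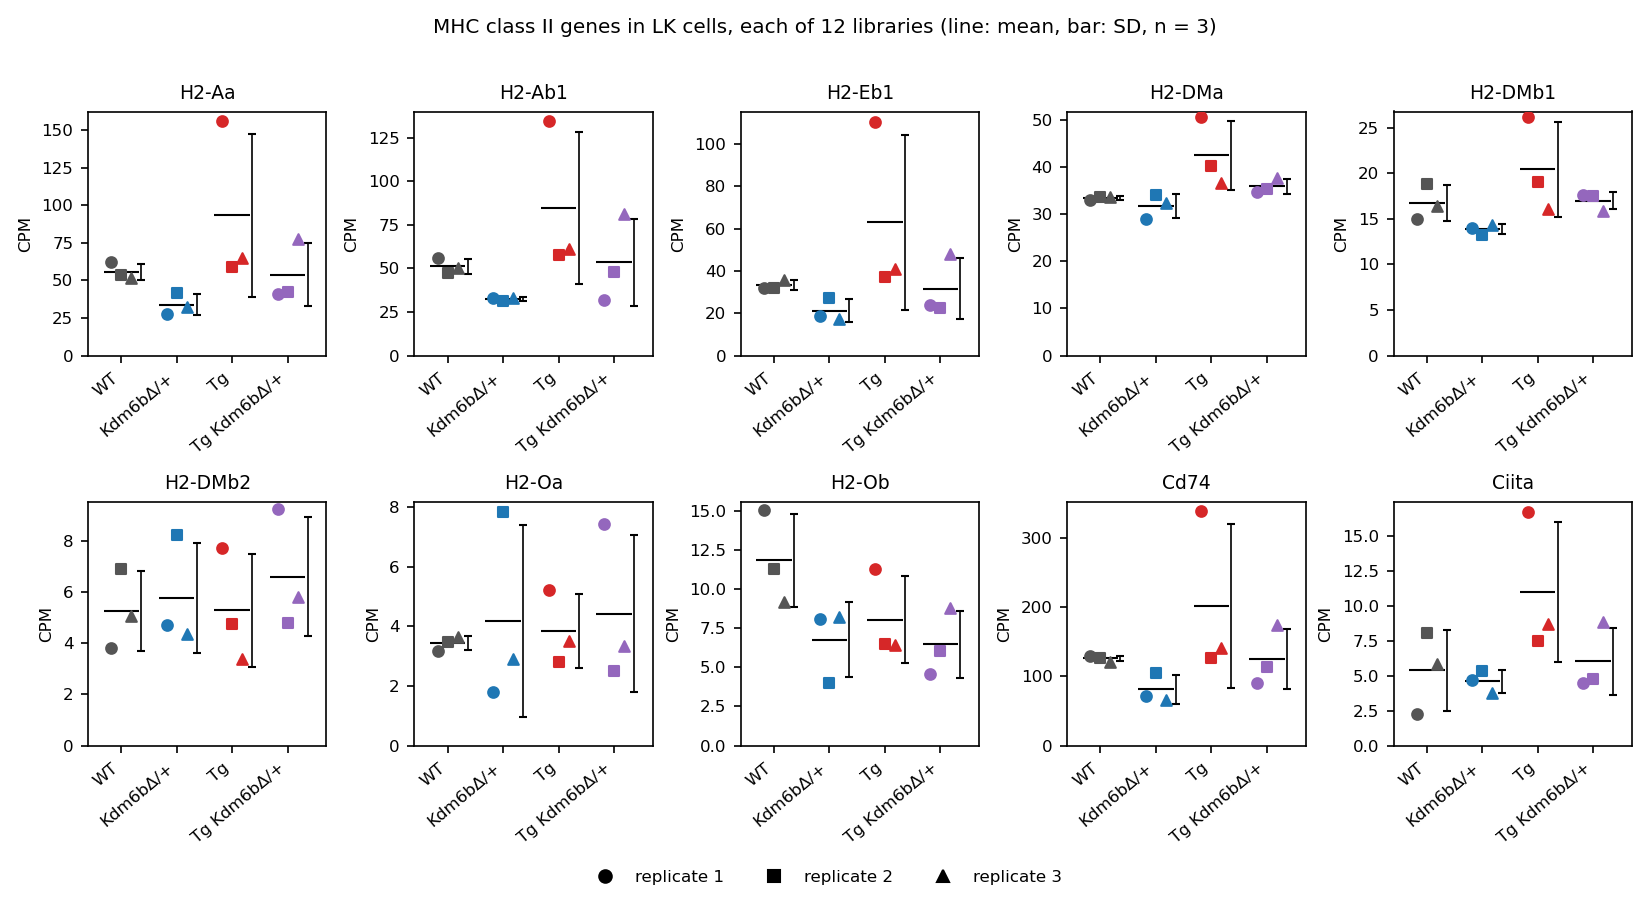
Expression of the 10 genes in CPM (vertical axis, starting at 0) in each of the 12 libraries, grouped by genotype (Tg, Asxl1Y588XTg), with a symbol for each replicate, a line at the mean, and a bar for the SD (n = 3). Asxl1Y588XTg replicate 1 is the top point for 7 genes, and the Kdm6bΔ/+ points of H2-Ab1 sit between 31.4 and 33.2 CPM, below the WT points.

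Comparing Kdm6bΔ/+ with WT asks what loss of 1 Kdm6b allele does in otherwise normal cells. H2-Ab1 was downregulated, with a log2 fold change of −0.66 (SE 0.11, edgeR adjusted p = 0.0452), and was the only one of the 10 genes called, that is, with an adjusted p under 0.05 and a fold change above 1.5. In all, 0.019% of the genes tested were called lower in this comparison. H2-Aa had a log2 fold change of −0.72 (SE 0.15, adjusted p = 0.250), H2-Eb1 of −0.65 (SE 0.17, adjusted p = 0.624), and Cd74 of −0.63 (SE 0.15, adjusted p = 0.589). At an unadjusted p under 0.05, 5 of the 10 genes were lower, against 2.19% of all genes tested. In 6 of the 10, H2-Aa, H2-Ab1, H2-Eb1, H2-DMb1, H2-Ob, and Cd74, every Kdm6bΔ/+ library lay below every WT library, against 4.8% of all genes. The median log2 fold change was −0.45 over the 10 genes and −0.00 over all genes tested. Since 8 of the 10 genes lie in 1 region of chromosome 17 and were read from the same 6 libraries, these counts are not independent measurements.

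The call on H2-Ab1 depended on the setting. It was lost with the replicate number as a block (edgeR adjusted p = 0.0902) and when any library but WT replicate 2 was left out (0.141 to 0.321). A joint fit of the 4 genotypes lost it too (0.880), as did that joint fit with a term for Y-linked transcripts (log2 fold change −0.41, adjusted p = 0.9999). The call was thus already lost in the joint fit without that term. It was kept by DESeq2 (0.000292), with RLE scaling (0.0486), without the expression filter (0.000262), and without WT replicate 2 (0.0259). In the joint fit with the Y-linked term the log2 fold changes of H2-Aa, H2-Eb1, and Cd74 were −0.27, −0.14, and −0.15. That fit includes Asxl1Y588XTg replicate 1, which had fewer than 100 Y-linked reads. Without Asxl1Y588XTg replicate 1 the values were −0.52, −0.41, and −0.38, and −0.66 for H2-Ab1, and none was called. Kdm6bΔ/+ replicate 2, which like WT had fewer than 100 Y-linked reads, gave 31.4 CPM for H2-Ab1 against 47.5 to 55.7 CPM in WT. But it is also one of the pair of libraries that stood apart across the MHC region, for which H2-Ab1 was among the low genes. For H2-Aa (41.7 CPM), H2-Eb1 (27.3 CPM), and Cd74 (105 CPM, outside the MHC), it was the highest Kdm6bΔ/+ library but below every WT library. Sex, this library, and genotype cannot be told apart here. Of the cell types that make class II, conventional dendritic cells were the ones whose marker sum was also lower in Kdm6bΔ/+ without overlap, at 73.0 to 82.9 CPM against 90.0 to 105 CPM in WT (13 of 13 markers detected). Among its defining markers Cd209a was at 0 to 0.236 CPM in Kdm6bΔ/+ and at 1.30 to 1.58 CPM in WT, and 0 of the 11 markers tested were called. Flt3, the most abundant of these markers, is also expressed by progenitors. Sums of B cell markers, 732 to 1500 against 591 to 1088 CPM, and of monocyte and macrophage markers, 811 to 1052 against 1007 to 1090 CPM, overlapped. But Ighm made up much of the B cell sum, with 1261 of 1500 CPM in Kdm6bΔ/+ replicate 2. The median log2 fold change was −0.32 over 19 B cell genes, −0.41 over 11 conventional dendritic cell genes, and −0.07 over 18 monocyte and macrophage genes. The part of these cells in the lower class II level was not tested, and in bulk RNA fewer cells of a type and less RNA per cell cannot be told apart.

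**Figure D3:**
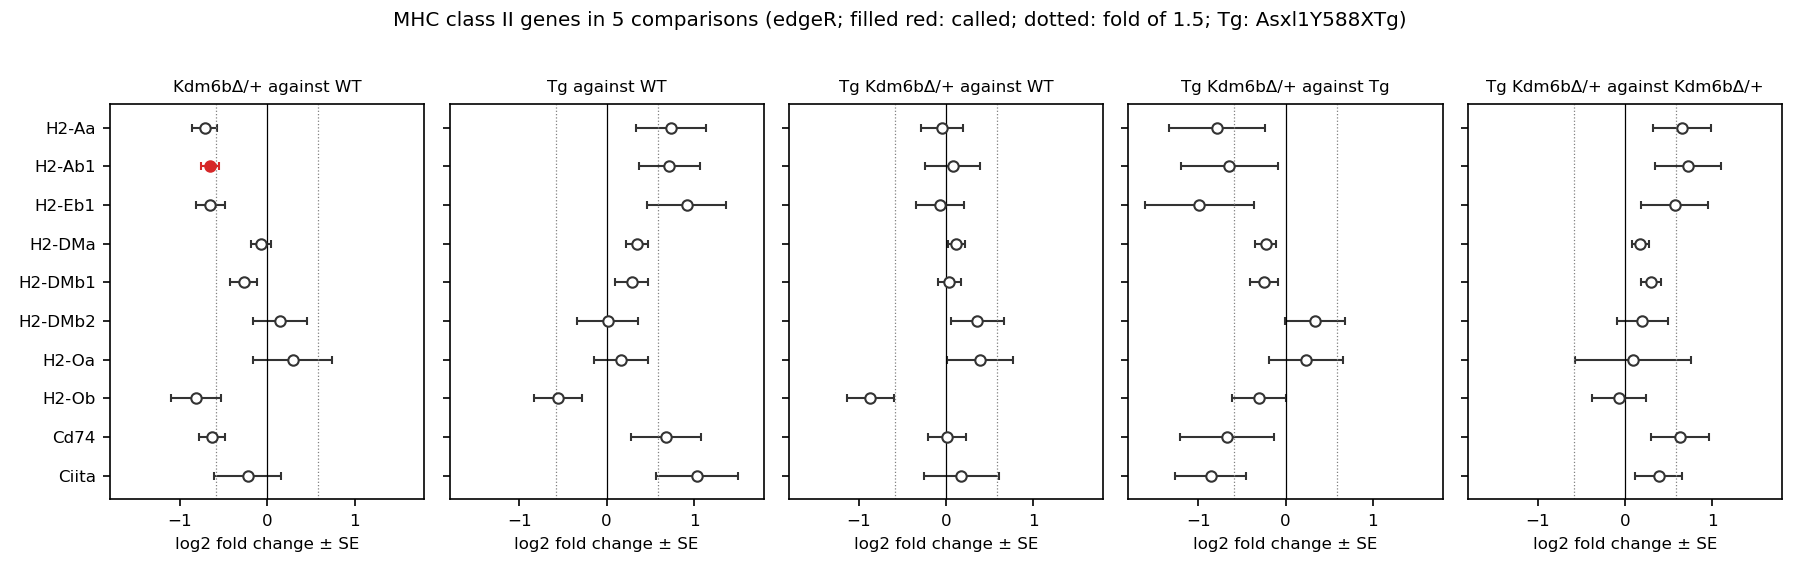
Log2 fold changes (horizontal axis, edgeR) of the 10 genes with their SE in the 5 comparisons between genotypes (Tg, Asxl1Y588XTg); filled red marks a called gene, and dotted lines mark a fold of 1.5. H2-Ab1 in Kdm6bΔ/+ against WT is the only filled point.

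The comparison of Asxl1Y588XTg with WT addresses the truncated ASXL1 protein. None of the 10 genes was called, whereas 1.61% of all genes tested were. At an unadjusted p under 0.05, 1 of the 10 differed (H2-DMa, higher), against 9.35% of all genes. Point estimates were above 0 for 9 genes, with log2 fold changes of 0.74 (SE 0.40) for H2-Aa, 0.72 (SE 0.35) for H2-Ab1, 0.92 (SE 0.46) for H2-Eb1, and 0.68 (SE 0.40) for Cd74, and edgeR adjusted p-values of 0.706, 0.662, 0.669, and 0.739. A group of 3 genes, H2-Ab1, H2-Eb1, and H2-DMa, were higher in every Asxl1Y588XTg than in every WT library, against 10.5% of all genes.

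These estimates rested on replicate 1. Its CPM exceeded the mean of the other Asxl1Y588XTg libraries 2.52-fold for H2-Aa, 2.27-fold for H2-Ab1, 2.82-fold for H2-Eb1, 2.53-fold for Cd74, and 2.06-fold for Ciita, but only 1.32-fold for H2-DMa and 1.49-fold for H2-DMb1. Without this library the log2 fold changes against WT were 0.15 for H2-Aa, 0.21 for H2-Ab1, 0.23 for H2-Eb1, and 0.09 for Cd74. Replicate 1 was also the highest of the 12 libraries for 16 of 18 class I pathway genes, 14 of 18 markers of monocytes and macrophages, 6 of 11 tested markers of conventional dendritic cells, and 4 of 19 B cell markers. C1qb, a macrophage complement gene, was at 47.8 CPM there and at 6.30 to 16.8 CPM elsewhere, Itgax, which encodes CD11c of dendritic cells, at 26.9 against 5.12 to 11.7 CPM, and Ms4a1, which encodes CD20 of B cells, at 8.36 against 0.364 to 3.11 CPM. Its plasma cell marker sum, 548 CPM, was the lowest of all, against 953 to 3291 CPM in the others. The part of these cells in its class II level was not tested.

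**Figure D4:**
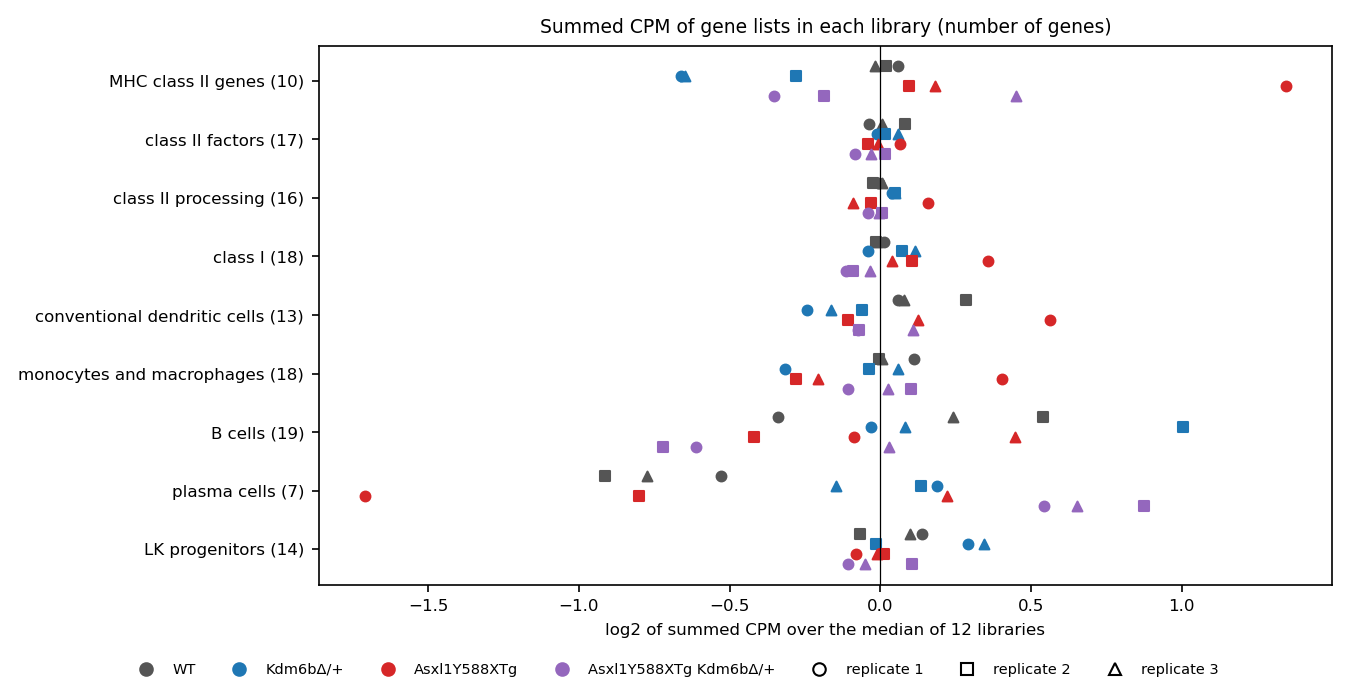
Summed CPM of the 10 class II genes and of 8 other gene lists in each library, as the log2 ratio to the median of the 12 libraries (horizontal axis); colors give genotypes and symbols replicates. Asxl1Y588XTg replicate 1 lies farthest right for the class II genes, the class I pathway, and the markers of conventional dendritic cells and of monocytes and macrophages, and farthest left for the plasma cell markers.

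Comparing Asxl1Y588XTg Kdm6bΔ/+ with Asxl1Y588XTg cells asks what the Kdm6b deletion does beside the transgene. Since Y-linked transcripts were found in 3 of 3 and 1 of 3 of these libraries, sex and genotype cannot be told apart here. No class II gene was called, against 1.74% of all genes tested, and none reached an unadjusted p under 0.05, against 15.4%. Log2 fold changes were −0.78 (SE 0.55) for H2-Aa, −0.65 (SE 0.56) for H2-Ab1, −0.99 (SE 0.63) for H2-Eb1, −0.67 (SE 0.54) for Cd74, and −0.86 (SE 0.41) for Ciita, with edgeR adjusted p-values from 0.390 to 0.671 among these 5. The groups overlapped for all 10 genes, whereas 14.1% of all genes were lower in every Asxl1Y588XTg Kdm6bΔ/+ library. Without Asxl1Y588XTg replicate 1 the values were −0.19, −0.13, −0.30, −0.07, and −0.42. In a joint fit of the 4 genotypes with a term for Y-linked transcripts they were −0.29, −0.39, −0.39, −0.12, and −0.47. Within the double mutants replicate 3 was the highest for H2-Aa, H2-Ab1, H2-Eb1, Cd74, and Ciita, and the 10 genes summed to 461 CPM in it against 264 and 297 CPM in the other two. Markers of B cells summed to 764 CPM in replicate 3 and to 490 and 453 CPM in the others, and those of conventional dendritic cells to 93.3 CPM against 82.0 and 82.3 CPM. Their part in the difference between these libraries was not tested.

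Against WT, the double mutants had log2 fold changes of −0.05 (SE 0.24) for H2-Aa, 0.07 (SE 0.31) for H2-Ab1, −0.07 (SE 0.28) for H2-Eb1, and 0.01 (SE 0.22) for Cd74. Y-linked transcripts were found in 3 of 3 double-mutant and 0 of 3 WT libraries, so that sex and genotype cannot be told apart here. In the joint fit with a term for Y-linked transcripts the values were 0.63, 0.42, 0.73, and 0.77. Without Asxl1Y588XTg replicate 1 that fit gave 0.26, 0.06, 0.31, and 0.41. None of the 10 genes was called, against 0.215% of all genes, and 1, H2-Ob, had an unadjusted p under 0.05, against 6.79%. Against Kdm6bΔ/+ cells, which differ from them by the transgene, the log2 fold changes were 0.66 (SE 0.33) for H2-Aa, 0.72 (SE 0.38) for H2-Ab1, 0.57 (SE 0.39) for H2-Eb1, and 0.63 (SE 0.34) for Cd74, with edgeR adjusted p-values of 0.5005, 0.522, 0.609, and 0.528. These estimates moved with the libraries used: without double-mutant replicate 3 they were 0.29, 0.29, 0.13, and 0.32, and without the pair that differed across the MHC region 1.0013, 0.97, 0.97, and 1.06. Again none was called, against 0.0948%, and 1 of 10, H2-DMb1, had an unadjusted p under 0.05, against 12.2%. The comparisons share their libraries, so that their values are set side by side and not correlated.

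The interaction, the effect of the deletion beside the transgene minus that on the WT background, was −0.08 (SE 0.58) for H2-Aa, −0.00 (SE 0.57) for H2-Ab1, −0.35 (SE 0.66) for H2-Eb1, and −0.06 (SE 0.57) for Cd74 on the log2 scale. None of the 10 genes was called, against 0.0126% of all genes, and none had an unadjusted p under 0.05, against 6.87%. With standard errors of 0.57 to 0.66 for these 4 genes, an interaction as large as the single effects was not detectable in these libraries. Without the pair of libraries that differed across the MHC region the values were 0.26 for H2-Aa, 0.24 for H2-Ab1, 0.05 for H2-Eb1, and 0.37 for Cd74.

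Of the peptide editors, H2-DMa encodes the α chain of DM (chr17:34119541-34139101), and H2-DMb1 (chr17:34153072-34160230) and H2-DMb2 (chr17:34143307-34151555) encode alternative β chains. H2-DMa was among the steadiest of the 10 genes, with 32.9, 33.7, and 33.5 CPM in WT, 29.0, 34.0, and 32.2 in Kdm6bΔ/+, 50.6, 40.2, and 36.6 in Asxl1Y588XTg, and 34.7, 35.2, and 37.7 in Asxl1Y588XTg Kdm6bΔ/+ cells. All libraries with the transgene exceeded all WT libraries, although by little: the log2 fold change was 0.35 (SE 0.13, edgeR adjusted p = 0.362) for Asxl1Y588XTg and 0.12 (SE 0.10, adjusted p = 0.851) for the double mutants, where 6.68% of all genes were likewise higher without overlap. H2-DMb1 was at 14.99, 18.8, and 16.4 CPM in WT, 14.01, 13.3, and 14.4 in Kdm6bΔ/+, 26.2, 19.1, and 16.1 in Asxl1Y588XTg, and 17.6, 17.5, and 15.9 in double-mutant cells. Kdm6bΔ/+ was thus the lowest group without overlap, and the log2 fold change was −0.27 (SE 0.16, adjusted p = 0.9999) against WT and 0.30 (SE 0.12, adjusted p = 0.335) for the double mutants against Kdm6bΔ/+. H2-DMa and H2-DMb1 were the 2 genes of the 10 that were higher without overlap in that comparison, against 9.32% of all genes. Exons of H2-DMa overlap those of Brd2, at 256 to 310 CPM, and 8.43% of its 50-base transcript pieces are shared with that gene. The share of H2-DMa reads that may come from Brd2 was not tested.

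H2-DMb2 was at 3.7995, 6.90, and 5.05 CPM in WT, 4.72, 8.24, and 4.37 in Kdm6bΔ/+, 7.73, 4.75, and 3.40 in Asxl1Y588XTg, and 9.23, 4.78, and 5.81 in double-mutant cells. Its highest values came from the pair of libraries that differed across the MHC region. H2-DMb1 and H2-DMb2 are near-identical in places, with 22.65% and 25.9% of their 50-base transcript pieces shared with another gene, in both mainly with each other, so that the split of reads between them is uncertain.

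Both DO chains took extreme values in that pair of libraries. H2-Oa, the α chain (chr17:34092340-34095234), was at 3.17, 3.48, and 3.65 CPM in WT, 1.79, 7.84, and 2.89 in Kdm6bΔ/+, 5.21, 2.81, and 3.52 in Asxl1Y588XTg, and 7.43, 2.50, and 3.35 in double-mutant cells. The 7.84 and 7.43 CPM belong to Kdm6bΔ/+ replicate 2 and Asxl1Y588XTg Kdm6bΔ/+ replicate 1. H2-Oa had between 25 and 177 reads per library, and 15.47% of its transcript pieces are shared with the overlapping gene BC051537. H2-Ob, the β chain (chr17:34238903-34254414), went the other way, with 4.005 CPM in the former and 4.57 CPM in the latter library, the lowest of the 12. These libraries were the highest or the lowest pair for H2-Oa, H2-DMb2, H2-Ob, and H2-Ab1, 4 of the 10 genes, against 1.52% of all genes tested and 13.04% of the 115 genes of the MHC region. All 4 are among the 15 genes of the region by which the pair was described, so that this count is not a separate observation.

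H2-Ob was the one member whose mean lay below that of WT in all 3 other genotypes. Its levels were 15.04, 11.3, and 9.19 CPM in WT, 8.08, 4.005, and 8.21 in Kdm6bΔ/+, 11.3, 6.47, and 6.40 in Asxl1Y588XTg, and 4.57, 6.03, and 8.80 in double-mutant cells. Kdm6bΔ/+ and double-mutant libraries lay below WT without overlap, the latter being the 1 such gene of the 10, against 6.87% of all genes. The log2 fold change was −0.81 (SE 0.28, edgeR adjusted p = 0.9999) for Kdm6bΔ/+, −0.56 (SE 0.27, adjusted p = 0.608) for Asxl1Y588XTg, and −0.87 (SE 0.27, adjusted p = 0.509) for the double mutants. Without Asxl1Y588XTg replicate 1 the second of these was −0.88. DO is characteristic of B cells. B cell marker sums overlapped between WT and each other genotype, but Ighm made up much of them, with 1261 of 1500 CPM in Kdm6bΔ/+ replicate 2. The median log2 fold change over the 19 B cell genes was −0.32 in Kdm6bΔ/+, −0.39 in Asxl1Y588XTg, and −0.03 in double-mutant cells against WT, and their part in the level of H2-Ob was not tested.

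Ciita (chr16:10480059-10528418) had the fewest reads per exon length, 0.565 ± 0.303 CPM per kilobase in WT. It was at 2.29, 8.02, and 5.84 CPM in WT, 4.72, 5.30, and 3.72 in Kdm6bΔ/+, 16.7, 7.50, and 8.70 in Asxl1Y588XTg, and 4.49, 4.72, and 8.80 in double-mutant cells, from 44 to 292 reads per library. WT replicate 1 was the lowest and Asxl1Y588XTg replicate 1 the highest of the 12, and the groups overlapped in each of the 5 comparisons. The log2 fold change of Asxl1Y588XTg against WT was 1.03 (SE 0.47, edgeR adjusted p = 0.567), and 0.60 without Asxl1Y588XTg replicate 1. Without the expression filter Ciita was called against WT (adjusted p = 0.00464) and for double mutants against Asxl1Y588XTg (0.00192). Over 17 class II factors, which include the RFX and NF-Y subunits that bind the promoters and the interferon γ receptor pathway, 0 were called in any of the 5 comparisons or the interaction. Their sums ranged from 1745 to 1955 CPM, and those with the highest means were Jak1, Ifngr1, and Spi1. At an unadjusted p under 0.05, 2 of the 17 were lower in double-mutant than in Asxl1Y588XTg cells, against 9.81% of all genes in that direction.

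The promoters of these genes are shown because their shared elements, the X and Y boxes, are what Ciita acts through. Any part of these elements in how the genes varied across libraries was not tested. No window was found for H2-Ab1, Cd74, and Ciita. Promoter windows of 300 bases, 250 before and 50 after the annotated start, were found for 7 of the 10 genes in RefSeq (GRCm38.p6), for H2-DMa with 2 different starts. Both strands were searched for the Y box core TGATTGG, the X box, read as AAC and TGATG with any 3 bases between them, and the palindromic X2 box TGACGTCA, and matches are in capitals. Each sequence runs 5′ to 3′ on the strand of its gene.
H2-Aa, chr17:34287852-34287918, minus strand: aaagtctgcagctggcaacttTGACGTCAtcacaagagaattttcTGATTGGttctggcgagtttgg
H2-Eb1, chr17:34305761-34305827, plus strand: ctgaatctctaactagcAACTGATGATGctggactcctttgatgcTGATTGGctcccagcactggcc
H2-DMb1, chr17:34153083-34153149, plus strand: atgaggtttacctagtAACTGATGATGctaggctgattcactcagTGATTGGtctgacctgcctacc
H2-DMb2, chr17:34145112-34145178, plus strand: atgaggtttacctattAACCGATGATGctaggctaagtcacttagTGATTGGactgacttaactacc
H2-Oa, chr17:34092289-34092355, plus strand: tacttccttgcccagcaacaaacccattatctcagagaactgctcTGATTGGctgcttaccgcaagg
H2-Ob, chr17:34238801-34238867, plus strand: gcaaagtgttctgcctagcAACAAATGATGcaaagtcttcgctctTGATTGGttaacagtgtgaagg

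The Y box core was in the windows of 6 of the 7 genes, all but H2-DMa, and in 7.82% of the 32851 promoter windows of the table. It began 50 bases before the annotated start in H2-Aa and 61 bases before it in H2-Eb1. The X box was in H2-Eb1, H2-DMb1, H2-DMb2, and H2-Ob, against 0.615% of all windows, and began 26 to 29 bases before the Y box. In H2-Aa the X2 box, present in 1.79% of all windows, began 24 bases before the Y box. In all, 17 windows of the table (0.0517%) held both an X and a Y box, and 4 of them belonged to these genes. A match describes these letters in this window and is no measurement of binding.

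Over the 12 libraries the log2 CPM of H2-Aa correlated with that of H2-Ab1 (Pearson r = 0.95), H2-Eb1 (0.98), and Cd74 (0.98), and without Asxl1Y588XTg replicate 1 with 0.90, 0.95, and 0.96. With H2-DMa r was 0.89 and 0.73 without that library, with H2-DMb1 0.75 and 0.41, and with Ciita 0.70 and 0.43. H2-Ob (0.42), H2-Oa (0.27), and H2-DMb2 (0.15) followed H2-Aa less, and H2-Oa and H2-DMb2 correlated with each other (0.74). These values describe 12 libraries that share 4 genotypes and are given without a test. With the mean standardized log2 CPM of H2-Aa, H2-Ab1, H2-Eb1, and Cd74, genes outside the list with the highest r among all genes tested included Grap2 (0.94), Glul (0.93), Anpep (0.91), Setbp1 (0.91), Cd302 (0.91), Gimap8 (0.91), H2-Q7 (0.90), Irf5 (0.90), and Fam49a (0.90). Without the 2 libraries farthest from the median, r was between 0.66 (Irf5) and 0.86 (Setbp1) for these genes.

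Among related pathways, 0 of 16 genes of class II processing, 0 of 18 class I genes, and 1 of 6 tested genes of T-cell costimulation were called in any comparison. Ctss, the protease that removes the invariant chain, was at 77.03 CPM in Asxl1Y588XTg replicate 1 and at 24.5 to 33.3 CPM in every other library, with a log2 fold change of 0.53 (SE 0.43, edgeR adjusted p = 0.832) against WT. The 3 genes with the highest means were Ctsb, Ctsd, and Hsp90aa1 in the processing list and Calr, B2m, and H2-D1 in the class I list. The median log2 fold change of the class I genes was 0.28 in Asxl1Y588XTg against WT, with 7 of 18 higher at an unadjusted p under 0.05, against 7.3% of all genes, and −0.03 in Kdm6bΔ/+ against WT, where the class II median was −0.45. Nlrc5, the class I counterpart of Ciita, had a log2 fold change of 0.62 (SE 0.17, adjusted p = 0.156) in Asxl1Y588XTg against WT. The costimulation gene called was Cd274, which encodes the inhibitory ligand PD-L1. It was at 15.7, 9.45, and 11.5 CPM in Asxl1Y588XTg and at 5.08, 5.69, and 6.93 CPM in double-mutant cells. Cd274 was downregulated in the latter, with a log2 fold change of −1.04 (SE 0.21, edgeR adjusted p = 0.0363). Of all genes tested, 1.59% were called lower there.

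Calls in the lists of other cell types were few. In Asxl1Y588XTg against WT, where 1.58% of all genes tested were called higher, 3 of 14 LK progenitor genes were upregulated. These were Gata2 (log2 fold change 0.73), Hlf (1.26), and Mecom (1.99). Gata2 (−1.02) and Mecom (−1.55) were downregulated in double-mutant against Asxl1Y588XTg cells, where 1.59% of all genes were called lower. Of 5 tested plasma cell genes, Jchain was upregulated in Kdm6bΔ/+ against WT (0.79) and in the double mutants against Kdm6bΔ/+ (0.83). Of all genes, 0.0758% and 0.0569% were called higher in these comparisons. Jchain (1.63), Igha (1.76), and Igkc (1.04) were upregulated in the double mutants against WT, where 0.145% of all genes were called higher. No gene was called among 19 B cell, 11 conventional dendritic cell, 8 plasmacytoid dendritic cell, 18 monocyte and macrophage, 12 T and NK cell, and 8 endothelial and stromal genes. The most abundant were Ighm, Cd37, and Cd79b of B cells, Flt3, Naaa, and Zbtb46 of conventional dendritic cells, and F13a1, Vcam1, and Csf1r of monocytes and macrophages. Among the remaining lists these were Lair1, Tcf4, and Bst2 of plasmacytoid dendritic cells, Nkg7, Il7r, and Lck of T and NK cells, and Pecam1, Cxcl12, and Col1a1 of endothelial and stromal cells.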

How the data were processed

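RNA-seq libraries of LK cells from 12 mice were used. The authors trimmed reads with Trimmomatic, aligned them to mm10 with STAR, and counted them per gene with HTSeq, and they deposited raw counts. The annotation and the strand setting are not given in the sources used here, and the labels and the methods name different library kits and sequencers. All values come from these deposited counts. Genes were filtered with filterByExpr over the 4 genotypes (15825 kept), scaled by TMM, and tested with the robust quasi-likelihood test of edgeR 4.0.16 (R 4.3.3) on the 6 libraries of each pair, or all 12 for the interaction. P-values are two-sided and Benjamini-Hochberg adjusted over all genes tested. Genes were called at an adjusted p under 0.05 and a fold change above 1.5. Scripts were tested on simulated data. DESeq2 1.42.0 was an alternative. The members and lists were chosen with earlier results of these data known. All 10 members, called list genes or the 3 most abundant per list, and the 10 genes most correlated with the core genes were to be named, of which 1 is not reported here; genes given as examples of libraries that stood apart, and Ms4a1, Nlrc5, Ctss, C1qb, Itgax, and Cd209a, were chosen after their values were seen.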

Additional observations from a re-analysis of the deposited data

How the results depend on the processing

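The single call, H2-Ab1 in Kdm6bΔ/+ against WT, depended on the setting. The number of the 10 genes called there was 1, and it was 3 with DESeq2 (H2-Aa, H2-Ab1, Cd74) and 4 without the expression filter (H2-Aa, H2-Ab1, H2-Eb1, Cd74). It was 0 in the joint fit of the 4 genotypes, 0 in that joint fit with a term for Y-linked transcripts, and 0 in both of these without Asxl1Y588XTg replicate 1. When 1 library was left out it was 0 to 2 (2 without Kdm6bΔ/+ replicate 2, H2-Aa and Cd74). Each fit with a term for Y-linked transcripts was a joint fit of the 4 genotypes. Without the filter 1 gene instead of 0 was called in Asxl1Y588XTg against WT (Ciita), in the double mutants against Asxl1Y588XTg (Ciita), and in the double mutants against WT (H2-Ob). The cause was not tested. No class II gene was called in the double mutants against Kdm6bΔ/+ or in the interaction under any setting run.

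Replicate numbers did not pair the libraries: deviations of libraries with the same number correlated with a median r of −0.03 (−0.10 to 0.07, 18 pairs). With the replicate block 0 of the 10 class II genes were called in Kdm6bΔ/+ against WT. With the replicate number as a block the sign was the opposite, in Asxl1Y588XTg against WT −0.032 for H2-DMb2, and in the double mutants against WT −0.0205 for H2-Ab1, −0.0449 for Cd74, and in the interaction 0.0219 for H2-Ab1.

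Other estimates also turned sign, and none of these was called. With a term for Y-linked transcripts the sign was the opposite, in Kdm6bΔ/+ against WT 0.0171 for H2-DMa, 0.13 for Ciita, and in the double mutants against WT 0.63 for H2-Aa, 0.73 for H2-Eb1, and in the interaction 0.0172 for H2-Ab1, 0.16 for H2-Oa, 0.0337 for Cd74. With that term and without Asxl1Y588XTg replicate 1 the sign was the opposite, in Asxl1Y588XTg against WT −0.0136 for H2-DMb1, −0.17 for H2-DMb2, and in the double mutants against Asxl1Y588XTg 0.11 for Cd74, and in the double mutants against WT 0.26 for H2-Aa, 0.31 for H2-Eb1, −0.14 for H2-DMb1. In the joint fit of the 4 genotypes the sign was the opposite, in the double mutants against WT −0.0048 for Cd74. In the joint fit without Asxl1Y588XTg replicate 1 the sign was the opposite, in Asxl1Y588XTg against WT −0.36 for H2-DMb2, −0.12 for H2-Oa, and in the double mutants against WT −0.0048 for Cd74. Without Kdm6bΔ/+ replicate 2 and the double-mutant replicate 1 the sign was the opposite, in the interaction 0.26 for H2-Aa, 0.24 for H2-Ab1, 0.0463 for H2-Eb1, −0.0528 for H2-DMb1, 0.15 for H2-Oa, 0.37 for Cd74. With DESeq2 the sign was the opposite, in the interaction 0.0142 for H2-Ab1. With RLE scaling the sign was the opposite, in the interaction 0.01 for H2-Ab1. Without the filter the sign was the opposite, in the interaction 0.0093 for H2-Ab1. With a stricter filter at a mean count of 50 the sign was the opposite, in the interaction 0.0126 for H2-Ab1. When 1 library at a time was left out, values that turned sign ranged in Asxl1Y588XTg against WT −0.36 to 0.26 for H2-DMb2, −0.12 to 0.35 for H2-Oa, and in the double mutants against Asxl1Y588XTg −0.37 to 0.52 for H2-Oa, −0.59 to 0.02 for H2-Ob, and in Kdm6bΔ/+ against WT −0.21 to 0.39 for H2-DMb2, −0.55 to 0.65 for H2-Oa, −0.60 to 0.18 for Ciita, and in the double mutants against WT −0.42 to 0.12 for H2-Aa, −0.35 to 0.35 for H2-Ab1, −0.51 to 0.13 for H2-Eb1, −0.0368 to 0.14 for H2-DMb1, −0.22 to 0.67 for H2-Oa, −0.30 to 0.20 for Cd74, −0.21 to 0.59 for Ciita, and in the double mutants against Kdm6bΔ/+ −0.13 to 0.55 for H2-DMb2, −0.52 to 0.92 for H2-Oa, −0.35 to 0.14 for H2-Ob, and in the interaction −0.44 to 0.51 for H2-Aa, −0.42 to 0.51 for H2-Ab1, −0.78 to 0.33 for H2-Eb1, −0.15 to 0.22 for H2-DMb1, −0.14 to 0.56 for H2-DMb2, −0.69 to 0.76 for H2-Oa, −0.35 to 0.54 for Cd74. Fits without Asxl1Y588XTg replicate 1, other than leaving out single libraries, and without the pair of libraries that differed across the MHC region were chosen after seeing the data.

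With 3 libraries per genotype, effects such as those of H2-Aa with standard errors of 0.40 and 0.55 in the comparisons with Asxl1Y588XTg were not resolved. Counts of all genes called moved as well, from 96 to 591 higher in Asxl1Y588XTg against WT and from 30 to 667 lower in the double mutants against Asxl1Y588XTg.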
